A study of Homo sapiens with 12 samples.

Results

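The transcriptional effect of YAP and TAZ siRNAs was examined in WI-38 fibroblasts, which come from human embryonic lung, that also received siRNA against cGAS. Members were taken by their labels: 2 libraries of cells transfected with YAP, TAZ and cGAS siRNAs (replicates 9 and 10) were compared with 2 libraries of cells transfected with cGAS siRNA and the control siRNA siAS (replicates 7 and 8), 4 of the 12 libraries of the series. The series holds 2 libraries in each of 6 groups, and the other groups received control siRNA alone, control with YAP and TAZ siRNAs, control with STING siRNA, or STING with YAP and TAZ siRNAs. Cells with the control siRNA alone (replicates 1 and 2) and cells with control, YAP and TAZ siRNAs (replicates 3 and 4), called YAP and TAZ siRNAs alone in what follows, served here to ask whether the effect differed when cGAS siRNA was absent. The titles write the cGAS siRNA as sicGAS4x and the control and YAP/TAZ siRNAs without 4x, the labels do not say what 4x stands for, and any difference in siRNA amount or number between the settings cannot be told apart from the cGAS siRNA itself. All groups were transfected in antibiotic-free medium, so every comparison is between transfected cells, and none is with untreated cells. The labels name no separate cultures, so p-values reflect only how far apart these samples lay, and that spread may be technical.

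YAP (gene YAP1) and TAZ (gene WWTR1) are transcriptional coactivators at the end of the Hippo pathway. When the kinases of that pathway are inactive, YAP and TAZ enter the nucleus, bind TEAD factors and activate genes of growth, adhesion and the cytoskeleton. In fibroblasts they also respond to the stiffness of the surrounding matrix. cGAS detects DNA in the cytosol and makes cyclic GMP-AMP, which activates STING and through it interferon and NF-kB responses.

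Libraries were sequenced from the 3' ends of mRNA, which gives about 1 fragment per transcript. Values are therefore in CPM (reads scaled to the library's total, adjusted by the TMM factors named under processing) without length correction. The 12 libraries held 17790774 to 20650727 reads, and 13894 genes were tested. Differences are given as log2(CPM + 1) with the standard error of the limma fit, a scale that understates the change of genes with low values. An adjusted p (Benjamini-Hochberg) under 0.05 counts as a change. In bulk RNA, fewer cells of a type and less RNA per cell cannot be told apart. The control siRNA libraries 1 and 2 were over 2-fold apart for 77 genes. Libraries 3 and 4, with YAP and TAZ siRNAs alone, were over 2-fold apart for 249 genes, of which 225 were higher in replicate 3. Every difference between the effects given below rests on that pair too. The cGAS siRNA libraries 7 and 8 agreed closely, with 29 genes over 2-fold apart. The libraries with all 3 siRNAs, 9 and 10, were over 2-fold apart for 54 genes, of which 42 were higher in replicate 9, and the 10 widest gaps by the naming rule were RSAD2, CXCL11, CMPK2, OASL, CXCL10, HERC5, MX1, IFIT2, OAS1 and MX2. These are interferon-stimulated genes, and results that rest on them are given below with and without each of these libraries. Of 27 markers of other cell types, 9 had values here, and their summed level was 51.0 to 53.9 CPM in the cGAS siRNA libraries and 57.4 to 63.6 CPM with YAP and TAZ siRNAs added. The smooth muscle gene MYH11 carried that rise: the other 8 markers summed to 48.9 and 44.0 CPM and then to 40.4 and 40.6 CPM, and the list median was -0.14. The epithelial, endothelial, blood cell and hepatocyte markers EPCAM, CDH1, PECAM1, VWF, PTPRC and ALB were among the 27, and their single values are not reported here. Of 12 fibroblast markers, all were measured, 5 rose and 1 fell (3 rose without replicate 8 or 10), among them DCN (decorin, a matrix proteoglycan) from 1505 and 1456 CPM to 2152 and 2415 CPM.

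The targeted messages were lower in both libraries with YAP and TAZ siRNAs. YAP1 (GRCh38 chromosome 11, 102110461 to 102233423, plus strand) was at 95.5 and 91.1 CPM with cGAS siRNA and at 24.6 and 21.7 CPM with YAP and TAZ siRNAs added, a log2 difference of -1.97 ± 0.13 (adjusted p = 4.44e-08). WWTR1 (chromosome 3, 149517235 to 149736714, minus strand) went from 93.5 and 97.7 CPM to 17.9 and 18.8 CPM (-2.32 ± 0.12, adjusted p = 4.06e-09). Neither pair of groups overlapped. The message of cGAS, listed under its older symbol MB21D1 (chromosome 6, 73413515 to 73452276, minus strand), stood at 9.60 and 6.14 CPM with control siRNA and at 1.94, 1.77, 1.65 and 1.30 CPM in replicates 7, 8, 9 and 10. All 4 libraries compared here therefore had less cGAS message than the control libraries, and the YAP and TAZ siRNAs made no called difference to it (-0.21 ± 0.22, adjusted p = 0.529). STING, listed as TMEM173, ranged from 21.0 to 29.9 CPM in the 4 libraries and was not called (adjusted p = 0.176).

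**Figure D1:**
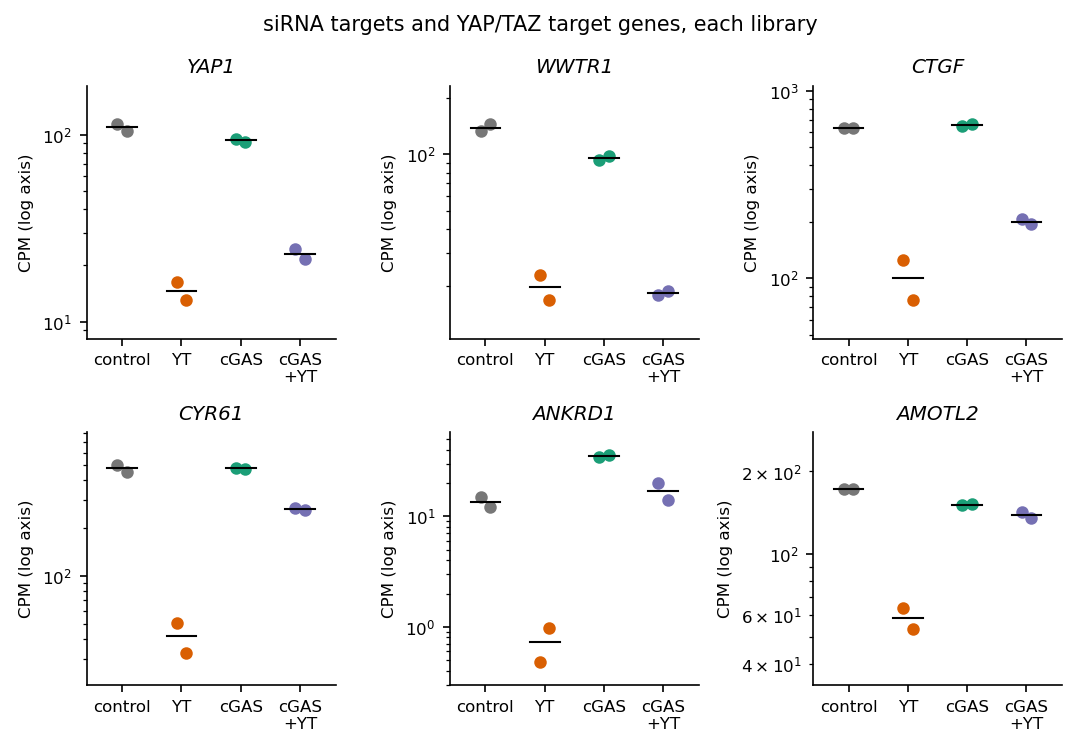
CPM (log axis) of the 2 siRNA targets and 4 YAP/TAZ target genes in each of 8 libraries, by group; points are libraries and bars are group means. YT means YAP and TAZ siRNAs. YAP1 and WWTR1 are low in both YT groups, while AMOTL2 is low with YAP and TAZ siRNAs alone and stands at 136 to 143 CPM with cGAS siRNA added.

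Across all genes, 2087 were higher with YAP and TAZ siRNAs in cells with cGAS siRNA (15% of genes tested) and 1761 were lower (12.7%), with a median log2 difference of 0.03. Counts of list members are to be read against these 2 shares, since a share near them is no result about a list. At least a 2-fold difference was reached by 290 of the higher and 303 of the lower genes. The same call was made with each of the 4 libraries left out in turn for 863 higher and 883 lower genes. The numbers of higher genes were 1304 without replicate 7, 1214 without replicate 8 and 1182 without replicate 10, and the numbers of lower genes were 1129 without replicate 8 and 1076 without replicate 10.

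Promoters of 7 genes are printed for the 3 gene groups on which the results turn, with capitals marking a short motif searched for that group. TEAD factors bind the letters GGAATG. The CHR element, found in many mitotic genes, has the letters TTTGAA. For interferon response elements the letters searched were TTTCNNTTTC, and neighbouring matches may overlap one another. All sequences are RefSeq windows of 300 bases on GRCh38.p14, reading 5' to 3' on the gene's strand, and both strands were searched. CTGF (RefSeq symbol CCN2; chr6:131951323-131951622, minus strand), ANKRD1 (chr10:90921038-90921337, minus strand) and PTPN14 (chr1:214551553-214551852, minus strand) stand for the YAP/TAZ targets.
CCN2: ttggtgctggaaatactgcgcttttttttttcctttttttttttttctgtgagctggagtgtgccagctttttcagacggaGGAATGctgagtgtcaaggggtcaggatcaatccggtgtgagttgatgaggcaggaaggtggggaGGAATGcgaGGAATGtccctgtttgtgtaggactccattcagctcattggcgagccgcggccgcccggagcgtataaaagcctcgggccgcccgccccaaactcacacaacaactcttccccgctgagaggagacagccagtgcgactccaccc
ANKRD1: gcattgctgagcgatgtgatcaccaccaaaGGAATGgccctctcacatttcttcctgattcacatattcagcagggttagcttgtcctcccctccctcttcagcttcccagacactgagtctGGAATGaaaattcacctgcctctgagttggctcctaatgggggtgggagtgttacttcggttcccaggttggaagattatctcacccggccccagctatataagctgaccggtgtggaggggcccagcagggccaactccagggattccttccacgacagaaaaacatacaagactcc
PTPN14: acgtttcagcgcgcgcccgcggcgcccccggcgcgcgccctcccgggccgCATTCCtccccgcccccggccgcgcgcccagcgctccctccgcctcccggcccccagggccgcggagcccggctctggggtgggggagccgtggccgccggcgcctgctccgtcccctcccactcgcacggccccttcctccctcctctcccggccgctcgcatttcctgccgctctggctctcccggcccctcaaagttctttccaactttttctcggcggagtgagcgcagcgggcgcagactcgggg
TOP2A (chr17:40417847-40418146, minus strand) and PRC1 (chr15:90994486-90994785, minus strand) stand for the mitotic genes.
TOP2A: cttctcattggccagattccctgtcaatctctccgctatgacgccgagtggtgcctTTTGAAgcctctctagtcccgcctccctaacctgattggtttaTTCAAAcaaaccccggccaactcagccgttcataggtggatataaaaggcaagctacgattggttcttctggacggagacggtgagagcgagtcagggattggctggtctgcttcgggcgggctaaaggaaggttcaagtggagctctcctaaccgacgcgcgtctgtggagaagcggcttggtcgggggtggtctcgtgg
PRC1: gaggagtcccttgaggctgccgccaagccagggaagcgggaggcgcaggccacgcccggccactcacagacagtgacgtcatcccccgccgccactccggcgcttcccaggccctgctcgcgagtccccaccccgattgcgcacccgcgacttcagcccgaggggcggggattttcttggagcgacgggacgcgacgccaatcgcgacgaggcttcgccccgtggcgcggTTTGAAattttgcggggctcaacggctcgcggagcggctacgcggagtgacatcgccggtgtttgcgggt
IFIT1 (chr10:89392373-89392672, plus strand) and ISG15 (chr1:1013247-1013546, plus strand) stand for the interferon-stimulated genes.
IFIT1: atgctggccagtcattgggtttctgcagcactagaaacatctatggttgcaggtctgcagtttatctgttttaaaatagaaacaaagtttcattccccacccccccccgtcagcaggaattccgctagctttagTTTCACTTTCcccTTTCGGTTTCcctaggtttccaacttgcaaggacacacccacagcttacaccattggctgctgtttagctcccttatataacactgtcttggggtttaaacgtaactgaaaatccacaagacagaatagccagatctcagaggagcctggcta
ISG15: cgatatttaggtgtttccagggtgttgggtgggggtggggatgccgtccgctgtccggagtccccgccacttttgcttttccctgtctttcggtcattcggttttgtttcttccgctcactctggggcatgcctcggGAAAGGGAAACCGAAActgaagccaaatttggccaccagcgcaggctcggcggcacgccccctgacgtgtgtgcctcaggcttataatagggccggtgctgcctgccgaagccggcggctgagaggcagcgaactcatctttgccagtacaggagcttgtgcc

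The TEAD letters occurred in 11 of 26 promoters of the YAP/TAZ targets (42.3%; 23 of the 28 genes had a promoter), against 14.03% of all 35116 promoters of the same length. In the list of G2 and mitosis genes, 27 of 45 promoters held the CHR letters (60.0%; 35 of 42 genes), against 15.16% of all promoters. Of the interferon antiviral genes, 33 of 46 promoters held the interferon response letters (71.7%; 35 of 42 genes), against 3.57% of all promoters. In the CTGF promoter the first bases of the matches lay 169, 104 and 95 bases before the start, and in PRC1 the match began 20 bases before it. These are matches of letters and no measure of binding.

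YAP/TAZ target genes were mostly lower. Of 28 measured targets, 18 fell and 2 rose, with a median log2 difference of -0.49. CTGF, a secreted matricellular protein, was at 648 and 664 CPM with cGAS siRNA and at 207 and 194 CPM with YAP and TAZ siRNAs added (-1.71 ± 0.15, adjusted p = 4.75e-07). CYR61, a related secreted protein, was at 479 and 475 CPM and then at 268 and 259 CPM (-0.86 ± 0.13, adjusted p = 0.000143). In both genes the 2 groups were well apart. The CTGF promoter above holds 3 TEAD matches. ANKRD1, a nuclear and sarcomeric ankyrin repeat protein, was at 34.6 and 35.8 CPM and then at 19.8 and 14.01 CPM (-1.03 ± 0.21, adjusted p = 0.00167). ANLN, an actin-binding scaffold of cell division, went from 46.5 and 46.0 CPM to 10.3 and 8.51 CPM (-2.19 ± 0.16, adjusted p = 8.60e-08). ASAP1, which regulates ARF GTPases at adhesions, went from 322 and 325 CPM to 159 and 171 CPM (-0.97 ± 0.08, adjusted p = 1.66e-07). AMOTL2, an angiomotin that binds YAP, stood at 151 and 153 CPM and at 143 and 136 CPM (-0.12 ± 0.09, adjusted p = 0.346), lower in both libraries but not called. The 2 targets that rose, named after their values were seen, were FOXF2, a forkhead factor of mesenchyme, by 0.91 ± 0.20, and ARHGEF17 by 0.49 ± 0.08.

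TEAD factors, the DNA-binding partners of YAP and TAZ, and the upstream Hippo genes come next. TEAD4 fell by 0.76 ± 0.19 in the fit of all libraries (adjusted p = 0.00591), a call lost without replicate 8 (0.0592) and without replicate 10 (0.103). TEAD1 was at 166 and 167 CPM and then at 196 and 189 CPM, which was not called (adjusted p = 0.0972). Of 20 Hippo kinases and adaptors, 3 rose and 4 fell, with a median of -0.01. The 4 that fell were PTPN14, a phosphatase that retains YAP in the cytoplasm (-1.07 ± 0.08), WWC1 (-1.04 ± 0.17), WWC2 (-0.67 ± 0.11) and NF2 (-0.77 ± 0.12). WWC1, WWC2 and NF2 are scaffolds that promote activation of the LATS kinases.

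Genes of mitosis had the lowest median of the 43 lists. Of 42 genes of G2 and mitosis, 39 fell, and the median log2 difference was -1.75. UBE2C, the ubiquitin-conjugating enzyme of the anaphase-promoting complex, was at 16.9 and 19.1 CPM with cGAS siRNA and at 1.61 and 1.25 CPM with YAP and TAZ siRNAs added (-2.97 ± 0.17, adjusted p = 8.33e-09). TOP2A, the topoisomerase that untangles replicated chromosomes, was at 154 in both libraries and then at 29.7 and 23.6 CPM (-2.49 ± 0.12, adjusted p = 9.59e-10). PRC1, which bundles microtubules in the spindle midzone, was at 19.9 and 19.4 CPM and then at 3.35 and 1.82 CPM (-2.56 ± 0.19). For each of these genes the highest library with YAP and TAZ siRNAs was far below the lowest without. CDK1, the mitotic kinase, fell by 2.62 ± 0.23 on the log2 scale, AURKB, a kinase of the chromosomal passenger complex, fell by 2.28 ± 0.14, and KIF2C, a microtubule depolymerase, fell by 2.49 ± 0.19. Of the 15 most lowered genes, UBE2C, CDK1, PRC1, ASPM, TOP2A, KIF2C, CEP55, NCAPG, PBK, CDCA8, AURKB and BIRC5 act in mitosis.

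Of 37 measured genes of DNA replication, 16 fell and 1 rose, with a median of -0.40. RRM2, the small subunit of ribonucleotide reductase, went from 14.8 and 14.2 CPM to 2.88 and 2.85 CPM (-2.00 ± 0.16, adjusted p = 1.86e-07). MCM10, a factor that helps open origins, went from 5.43 and 6.14 CPM to 0.992 and 0.467 CPM (-1.99 ± 0.22, adjusted p = 4.84e-06). FEN1, the flap endonuclease of lagging-strand synthesis, fell by 1.14 ± 0.14. The 1 replication gene that rose, named after its value was seen, was PCNA, the polymerase clamp and also a p53 target, from 92.1 and 84.6 CPM to 131 and 116 CPM (0.48 ± 0.13, adjusted p = 0.0142). That call was lost without replicate 8 (adjusted p = 0.12) and without replicate 9 (adjusted p = 0.11).

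Of the regulators of the G1 phase, the CDK inhibitors CDKN1B and CDKN1C rose and the drivers CDK6 and CCND1 fell. CDKN1B, which encodes p27, was at 40.9 and 37.3 CPM and then at 65.5 and 72.2 CPM (0.80 ± 0.11, adjusted p = 4.89e-05). CDKN1C, which encodes p57, went from 22.3 and 22.4 CPM to 37.2 and 51.4 CPM (0.94 ± 0.13, adjusted p = 6.71e-05). CDK6 fell from 222 and 235 CPM to 114 and 107 CPM, and CCND1, which encodes cyclin D1, fell from 646 and 691 CPM to 443 and 419 CPM. CDKN1A, which encodes p21, was at 1298 and 1326 CPM and then at 1705 and 1633 CPM (0.35 ± 0.10, adjusted p = 0.0201). The groups did not overlap, but the call for CDKN1A was lost with any of the 4 libraries left out, at adjusted p 0.119 without replicate 7, 0.0934 without 8, 0.0948 without 9 and 0.0597 without 10. Of the 16 genes in the list of CDK inhibitors and the RB family, 5 rose and 6 fell. The number that rose was 2 without replicate 7, 8 or 10, and the number that fell was 3 without replicate 10.

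Targets of p53 were mostly higher. Of 32 measured, 21 rose and 4 fell, with a median of 0.38, and 13 rose without replicate 7. TP53INP1, a stress-induced regulator of p53, went from 34.7 and 35.5 CPM to 64.6 and 72.2 CPM (0.94 ± 0.09, adjusted p = 8.35e-07). SPATA18, which acts in mitochondrial quality control, went from 11.9 and 11.7 CPM to 30.2 and 29.7 CPM (1.27 ± 0.13, adjusted p = 1.94e-06). BBC3, which encodes the pro-apoptotic protein PUMA, went from 118 and 113 CPM to 187 and 234 CPM (0.86 ± 0.11, adjusted p = 1.70e-05). ZMAT3, an RNA-binding p53 target, went the other way, from 268 and 277 CPM to 130 and 144 CPM (-0.99 ± 0.08, adjusted p = 3.44e-07).

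**Figure D2:**
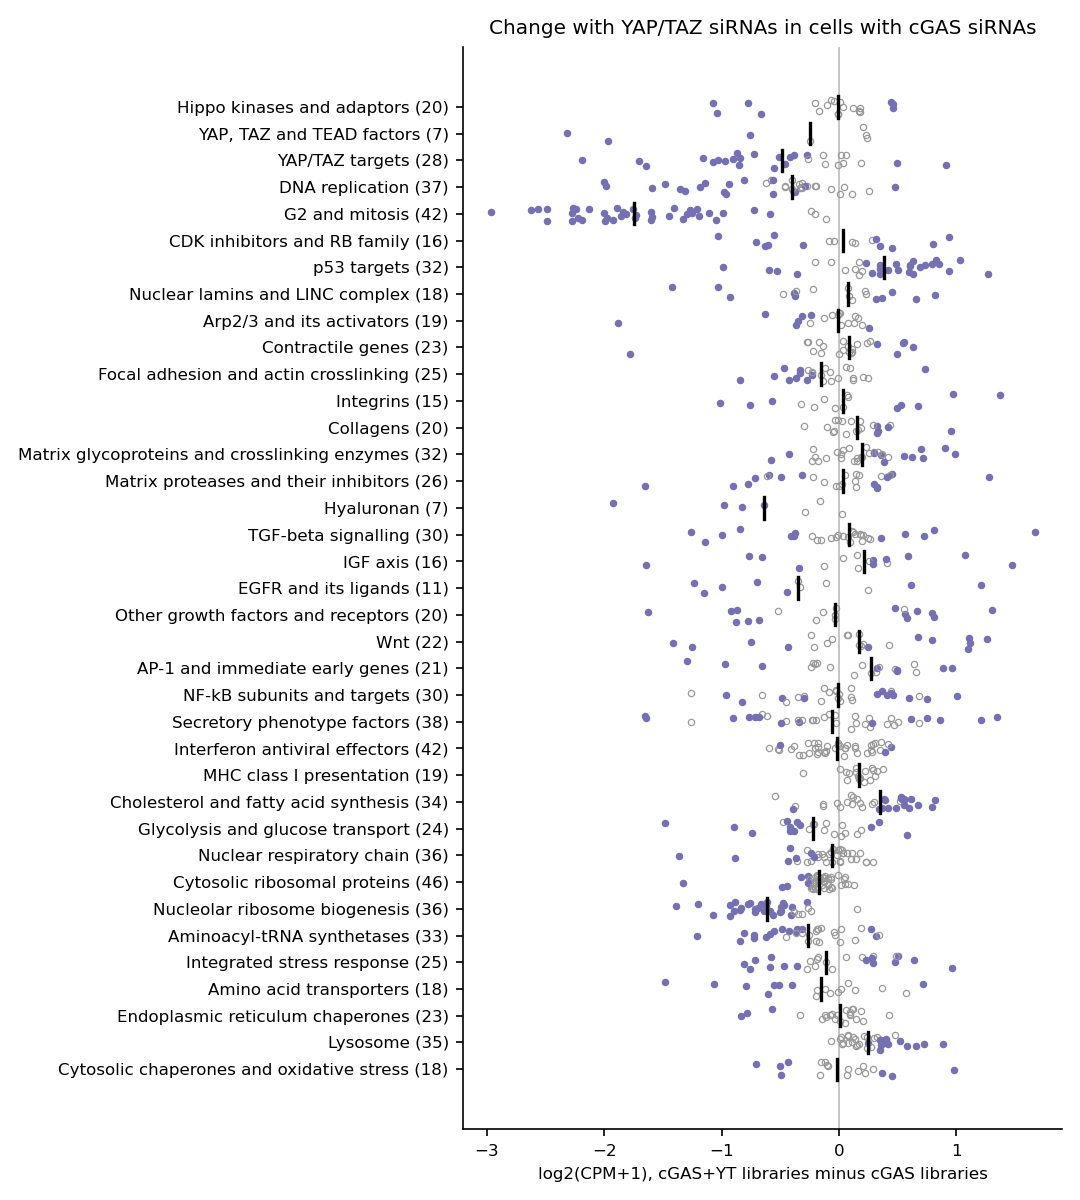
Log2(CPM + 1) difference between libraries with YAP, TAZ and cGAS siRNAs and libraries with cGAS siRNA, for each member of 37 gene lists (number tested in brackets). Filled points have an adjusted p under 0.05, open points do not, and black bars are list medians. The G2 and mitosis list lies lowest, with a median of -1.75, and the p53 targets and the cholesterol and fatty acid genes have medians of 0.38 and 0.35.

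At the nuclear envelope, LMNB1, which encodes lamin B1, fell from 10.2 and 8.69 CPM to 3.45 and 2.39 CPM (-1.42 ± 0.18, adjusted p = 2.81e-05). TMPO, which encodes a lamina-associated polypeptide, fell by 1.03 ± 0.14, and the nuclear pore gene NUP93 fell by 0.93 ± 0.12. SYNE3, which encodes a nesprin that links the nucleus to the cytoskeleton, rose by 0.66 ± 0.14. In the list of lamins and nuclear envelope proteins, 5 of 18 rose and 5 fell. The number that rose was 3 without replicate 7, 3 without replicate 8 and 2 without replicate 10.

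In the actin cytoskeleton, ACTR2, a core subunit of the Arp2/3 complex that branches actin filaments, went from 500 and 503 CPM to 137 and 132 CPM (-1.89 ± 0.09, adjusted p = 9.59e-10). ARPC2, another subunit, fell by 0.37 ± 0.08, and WASF3, an activator of the complex, fell by 0.63 ± 0.12. Of the 19 genes of this list, 6 fell and 1 rose, and the rise was not called with replicate 7, 8, 9 or 10 left out.

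Contractile genes behaved unevenly. Of 23 measured, 5 rose and 1 fell, with a median of 0.09. The 1 that fell was TAGLN2, an actin-binding transgelin, from 462 and 470 CPM to 136 and 134 CPM (-1.78 ± 0.10, adjusted p = 1.06e-08). LMOD1, a leiomodin that nucleates actin in smooth muscle, rose from 86.4 and 92.3 CPM to 140 and 138 CPM (0.63 ± 0.11, adjusted p = 0.000623), and MYLK, myosin light chain kinase, rose from 1106 and 1110 CPM to 1530 and 1721 CPM (0.55 ± 0.10). Beside these, the smooth muscle marker MYH11, from the list of other cell types, rose from 4.93 and 6.97 CPM to 17.0 and 23.0 CPM (1.59 ± 0.26, adjusted p = 0.000229). Another marker of that list, the pericyte gene RGS5, rose by 0.67 ± 0.20, a call lost without replicate 7 (adjusted p = 0.0579), 8 (0.128) or 10 (0.275), and the epithelial keratin KRT19 fell by 0.65 ± 0.18, a call lost without replicate 7 (0.0852), 8 (0.0547) or 10 (0.159). The part of other cell types in the result was not tested. The number of contractile genes that rose was 3 without replicate 7 and 2 without replicate 8 or 10.

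Focal adhesion and actin crosslinking genes were lower in 9 of 25 cases and higher in 1. LPP, a zyxin-family adaptor, fell by 0.85 ± 0.11, PXN, which encodes paxillin, fell by 0.55 ± 0.08, and ACTN1, which encodes alpha-actinin, fell by 0.47 ± 0.09. FHL1, a LIM protein, was the 1 that rose (0.73 ± 0.11), and 2 rose without replicate 9. The number that fell was 4 without replicate 8 and 5 without replicate 10. Integrins split: 5 of 15 rose and 3 fell. ITGA8, which pairs with beta 1 to bind fibronectin and nephronectin, went from 35.9 and 37.7 CPM to 82.5 and 113 CPM (1.37 ± 0.11, adjusted p = 2.22e-07). The collagen-binding subunits moved in opposite directions, ITGA1 by 0.67 ± 0.09 and ITGA2 by -0.76 ± 0.11. ITGA6, a laminin-binding subunit, fell by 1.01 ± 0.10. Without replicate 10, 3 integrins rose.

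Matrix genes rose more often than they fell. Of 32 glycoproteins and crosslinking enzymes, 9 rose and 2 fell (1 without replicate 8), with a median of 0.19. LAMB1, a laminin beta chain, went from 674 and 634 CPM to 1180 and 1262 CPM (0.90 ± 0.09, adjusted p = 2.82e-06). TGM2, a transglutaminase that crosslinks matrix, went from 110 and 104 CPM to 210 and 217 CPM (0.99 ± 0.08, adjusted p = 2.24e-07). P4HA2, a subunit of collagen prolyl hydroxylase, fell by 0.58 ± 0.08. Of 20 collagens, 5 rose, led by COL14A1 (0.95 ± 0.19), but the number was 2 without replicate 7, 1 without replicate 8, 3 without replicate 9 and 1 without replicate 10. Among 26 proteases and inhibitors, 6 rose and 7 fell. The number that rose was 2 without replicate 8 and 3 without replicate 10. TIMP3, an inhibitor of metalloproteinases held in the matrix, went from 445 in both libraries to 253 and 266 CPM (-0.78 ± 0.08, adjusted p = 1.65e-06). SERPINB2, a serpin, went from 18.0 and 14.3 CPM to 5.38 and 3.58 CPM (-1.66 ± 0.24, adjusted p = 6.85e-05).

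Genes of TGF-beta signalling included secreted factors and their modulators. BMP4, a bone morphogenetic protein, was at 88.3 and 79.4 CPM and then at 239 and 301 CPM (1.67 ± 0.12, adjusted p = 6.55e-08). FST, which encodes follistatin, a binding protein for activins, was at 317 and 337 CPM and then at 148 and 125 CPM (-1.26 ± 0.10, adjusted p = 2.79e-07). Both differences were far wider than the gaps between replicates. SMURF2, a ubiquitin ligase of this pathway, fell by 1.14 ± 0.11, and TGFBR1, a type I receptor, fell by 1 ± 0.20. Of 30 genes of TGF-beta signalling, 5 rose, a share near the 15% of all genes, and 7 fell, against 12.7% of all genes. The number that rose was 3 without replicate 8, and the number that fell was 4 without replicate 10.

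In the insulin-like growth factor axis, IGFBP3, which binds and carries the ligands, fell from 419 and 428 CPM to 153 and 118 CPM (-1.65 ± 0.15, adjusted p = 8.35e-07). The ligand IGF1 rose from 12.02 and 9.72 CPM to 29.4 and 34.3 CPM (1.47 ± 0.22, adjusted p = 0.000103). IGF1 lay below 1 CPM in the 4 libraries with control siRNA or with YAP and TAZ siRNAs alone. IRS2, an adaptor of the receptor, fell by 0.66 ± 0.11. Of 16 genes of this axis 6 rose and 4 fell, and 3 rose without replicate 7 or 8. Among EGFR ligands, AREG (amphiregulin) rose from 25.8 and 19.6 CPM to 63.8 and 44.3 CPM (1.21 ± 0.17), while HBEGF fell by 0.997 ± 0.158. The feedback inhibitors ERRFI1 and DUSP5 fell by 1.24 ± 0.15 and 1.15 ± 0.12. Of 11 genes in the EGFR list 2 rose and 5 fell, and 1 rose without replicate 7, 8 or 9. Of 20 other growth factors and receptors 7 rose and 6 fell. FGF5 fell by 1.63 ± 0.16 and PDGFA by 0.88 ± 0.12, whereas PDGFD rose by 1.30 ± 0.14.

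Among 22 Wnt genes 7 rose and 4 fell. The transcription factor LEF1 rose from 12.6 and 15.3 CPM to 32.3 and 30.0 CPM (1.11 ± 0.13, adjusted p = 6.74e-06), and the receptor ROR1 rose by 1.11 ± 0.16. The ligand WNT2 was at 10.2 and 8.49 CPM and then at 18.6 and 30.0 CPM (1.26 ± 0.20, adjusted p = 0.000174). The receptor FZD8 fell from 42.1 and 35.0 CPM to 14.5 and 13.1 CPM (-1.42 ± 0.20, adjusted p = 6.85e-05). Without replicate 7, 8 or 10, 4 genes of this list rose. In the fetal growth list, 5 of 9 fell and 1 rose (2 without replicate 9). Those that fell included the RNA-binding protein IGF2BP3 (-1.18 ± 0.08) and HMGA2, an architectural chromatin factor, from 82.9 and 93.7 CPM to 29.7 and 41.9 CPM (-1.30 ± 0.12).

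Genes of ribosome assembly in the nucleolus were lower as a group. Of 36 measured, 30 fell, with a median of -0.62, and 19 fell without replicate 10. DDX21, a nucleolar RNA helicase, went from 398 and 381 CPM to 202 and 169 CPM (-1.07 ± 0.09, adjusted p = 2.79e-07). DKC1, the pseudouridine synthase dyskerin, went from 158 and 160 CPM to 74.2 and 63.2 CPM (-1.21 ± 0.11, adjusted p = 4.70e-07). NOP16 fell by 1.39 ± 0.16. Of the ribosomal protein genes themselves, 6 of 46 fell, a share near the 12.7% of all genes. The number was 3 without replicate 7, 2 without replicate 8, 2 without replicate 9 and 10 without replicate 10. RPL37 stood out with 951 and 949 CPM and then 372 and 384 CPM (-1.33 ± 0.08, adjusted p = 3.03e-08), against a list median of -0.17. All 46 were lower in replicate 9 than in replicate 10.

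Aminoacyl-tRNA synthetases, which charge tRNAs, fell in 13 of 33 cases and rose in 2 (in 1 without replicate 9 or 10, and in none without replicate 7 or 8). FARSB fell by 1.21 ± 0.12, YARS by 0.81 ± 0.08 and LARS by 0.85 ± 0.09. Of 18 amino acid transporters, 7 fell and 1 rose (2 without replicate 7). SLC7A5, the large neutral amino acid transporter, went from 98.1 and 112 CPM to 33.0 and 41.2 CPM (-1.48 ± 0.10, adjusted p = 6.60e-08), and SLC7A1, a transporter of cationic amino acids, fell by 0.79 ± 0.12. In glycolysis and glucose transport, 9 of 24 fell and 3 rose. LDHA, lactate dehydrogenase A, went from 207 and 221 CPM to 84.9 and 67.7 CPM (-1.48 ± 0.12, adjusted p = 2.05e-07), ENO1, an enolase, fell by 0.90 ± 0.10, and the glucose transporter SLC2A3 fell by 0.74 ± 0.08. The number of glycolytic genes that rose was 1 without replicate 7 or 9, and no rise was called without replicate 8 or 10, when 6 still fell.

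Cholesterol and fatty acid synthesis went the other way: 17 of 34 rose and 1 fell, with a median of 0.35, and the 1 that fell was not called without replicate 7, 8 or 10. HMGCS1, the synthase at the start of the mevalonate pathway, went from 230 and 217 CPM to 357 and 355 CPM (0.67 ± 0.09, adjusted p = 4.23e-05). SC5D, a late sterol desaturase, rose by 0.79 ± 0.12, FADS2, a fatty acid desaturase, by 0.60 ± 0.09, and FDFT1, squalene synthase, by 0.53 ± 0.08. Of 35 lysosomal genes 14 rose, with a median of 0.25. The protease CTSK rose from 53.2 and 54.2 CPM to 105 and 95.6 CPM (0.88 ± 0.10, adjusted p = 4.46e-06), and the cholesterol exporter NPC1 rose by 0.72 ± 0.13. The number of lysosomal genes that rose was 9 without replicate 7, 8 without replicate 8 and 8 without replicate 10. The endoplasmic reticulum chaperone HSPA5 fell from 1435 and 1417 CPM to 871 and 789 CPM (-0.78 ± 0.08). Of 23 such genes 3 fell, a share near the 12.7% of all genes.

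The remaining lists had members on both sides or few calls. HMMR, which is in both the hyaluronan and the mitosis lists, fell by 1.925 ± 0.185. Of 7 hyaluronan genes 4 fell (2 without replicate 7 or 10), among them the synthase HAS2, from 11.97 and 12.47 CPM to 6.33 and 5.14 CPM, a call lost without replicate 8 (adjusted p = 0.0647) and without replicate 10 (0.0902). Of 21 AP-1 and immediate early genes 5 rose and 3 fell. ATF3, a stress-induced factor of that family, rose by 0.96 ± 0.14, while FOSL1 fell by 0.65 ± 0.11 and KLF2, a zinc finger factor, fell by 1.29 ± 0.23. Of 25 genes of the integrated stress response 7 rose and 7 fell, and the number that rose was 3 without replicate 7 or 8 and 4 without replicate 9. SHMT2, a mitochondrial enzyme of one-carbon metabolism, fell by 0.81 ± 0.08, and CHAC1, which degrades glutathione, fell by 0.76 ± 0.11. Of 36 nuclear genes of the respiratory chain 7 fell, 4 without replicate 8 and 3 without replicate 10, led by NDUFB5, a subunit of complex I, from 68.1 and 78.2 CPM to 28.8 and 26.7 CPM (-1.37 ± 0.13, adjusted p = 9.28e-07). For the 13 mitochondrially encoded genes limma called 0 (0 at an unadjusted p under 0.05; edgeR 0, DESeq2 0). Of 18 cytosolic chaperone and oxidative stress genes 3 rose and 4 fell, with GCLC, which makes a glutathione precursor, higher by 0.98 ± 0.10 and the metallothionein MT2A lower by 0.71 ± 0.10.

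The 15 most raised genes by the naming rule were CEND1, SCN3A, MFSD6, FGL2, SYT11, SLC40A1, CTTNBP2, S1PR1, PDZRN3, BMF, SPON1, TMEM133, DACH1, TSPAN12 and GDNF. SYT11, a synaptotagmin, went from 36.1 and 36.7 CPM to 184 and 194 CPM (2.34 ± 0.10, adjusted p = 7.24e-10). SCN3A, a sodium channel subunit, went from 7.98 and 8.00 CPM to 53.03 and 53.02 CPM (2.59 ± 0.22, adjusted p = 4.31e-07). CEND1, a neuronal cell cycle exit gene, went from 1.16 and 0.687 CPM to 11.9 and 14.8 CPM (2.90 ± 0.21, adjusted p = 7.28e-08), and the first values correspond to few reads. FGL2, a fibrinogen-like protein, went from 7.42 and 8.10 CPM to 35.3 and 58.6 CPM (2.41 ± 0.17). S1PR1, a sphingosine 1-phosphate receptor, went from 7.53 and 4.81 CPM to 28.9 and 30.9 CPM (2.13 ± 0.22). BMF, a pro-apoptotic BCL2 family member, rose by 2.03 ± 0.22, and GDNF, a neurotrophic factor, by 1.89 ± 0.14. In the other direction KRTAP2-3, from a family of near-identical keratin-associated genes whose reads may be shared, went from 50.7 and 49.3 CPM to 8.55 and 3.27 CPM (-3.00 ± 0.27). MAT2B, a regulatory subunit of methionine adenosyltransferase, went from 62.8 and 64.2 CPM to 11.1 and 12.04 CPM (-2.36 ± 0.18).

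Inflammatory genes were described by 2 lists. Of 38 factors that senescent cells are known to secrete, 6 rose and 8 fell, and of 30 NF-kB subunits and targets 8 rose and 4 fell, with medians of -0.06 and -0.01. Among all genes 15% rose and 12.7% fell, so the shares that rose in the secretory list and fell in the NF-kB list were near those of all genes. CXCL8, a neutrophil-attracting chemokine, was at 8.37 and 4.61 CPM with cGAS siRNA and at 4.20 and 3.06 CPM with YAP and TAZ siRNAs added (-0.66 ± 0.40, adjusted p = 0.244). CXCL1, a related chemokine whose family shares sequence, was at 2.44 and 1.72 CPM and then at 5.67 and 2.59 CPM (adjusted p = 0.232). IL1B was at 2.77 and 1.72 CPM and then at 1.65 and 2.23 CPM (adjusted p = 0.784), with the groups overlapping. IL6 was at 6.15 and 7.12 CPM and then at 3.21 and 1.40 CPM (-1.26 ± 0.53, adjusted p = 0.09), lower in both libraries but not called in the fit of all 12 libraries, although it was called in a fit of the 4 libraries alone (adjusted p = 0.00259). PTGS2, which encodes cyclooxygenase 2, was at 13.4 and 15.7 CPM and then at 24.4 and 25.9 CPM (0.75 ± 0.23, adjusted p = 0.0229), and the call was lost with any of the 4 libraries left out, at adjusted p 0.151 without replicate 7, 0.0592 without 8, 0.0672 without 9 and 0.123 without 10. PTGES, a prostaglandin E synthase, went from 4.82 and 4.61 CPM to 14.3 and 12.9 CPM (1.35 ± 0.16, adjusted p = 8.72e-06). BIRC3 and BIRC2, which encode ubiquitin ligases of NF-kB signalling, fell by 0.96 ± 0.15 and 0.49 ± 0.10, while the transcription factor IRF1 rose by 0.44 ± 0.08. The NF-kB counts moved with single libraries: 5 rose and 2 fell without replicate 7, 2 and 3 without 8, 2 and 7 without 9, and 4 and 2 without 10. For the secretory list, 3 rose without replicate 7, 8 or 9, and 4 fell without replicate 7.

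For many inflammatory genes the same siRNAs gave far larger changes in cells without cGAS siRNA. Across all genes YAP and TAZ siRNAs alone raised 2865 genes (20.6%) and lowered 2908 (20.9%) against control siRNA. In that comparison CXCL8 was at 0.727 and 1.65 CPM with control siRNA and at 493 and 146 CPM with YAP and TAZ siRNAs, CXCL1 at 2.49 and 0.170 CPM and then at 496 and 292 CPM, and PTGS2 at 2.96 and 3.86 CPM and then at 749 and 539 CPM. The difference between the effects was -7.63 ± 0.56 for CXCL8 (adjusted p = 1.74e-07), -6.88 ± 0.56 for CXCL1 (5.75e-07), -6.43 ± 0.33 for PTGS2 (2.51e-09), -5.75 ± 0.35 for IL24 (2.67e-08) and -5.60 ± 0.40 for IL1B (1.42e-07). These were the 5 lowest differences by the naming rule. IL6 was at 4.36 and 3.98 CPM with control siRNA and at 11.3 and 0.926 CPM with YAP and TAZ siRNAs alone. It was not called in that comparison (-0.09 ± 0.53, adjusted p = 0.91), nor was its difference between the effects (-1.17 ± 0.75, adjusted p = 0.341). Of the NF-kB list 26 rose with YAP and TAZ siRNAs alone, and the effect was lower with cGAS siRNA for 24 of 30. Of the secretory list 26 rose alone and the effect was lower for 26 of 38. Over all genes the effect was lower with cGAS siRNA for 824 (5.93%) and higher for 1042 (7.5%). STC1, a secreted stanniocalcin, moved in opposite directions: it rose from 135 and 133 CPM to 1513 and 1416 CPM without cGAS siRNA and fell from 312 and 276 CPM to 197 and 151 CPM with it (difference -4.20 ± 0.21, adjusted p = 1.87e-09). AREG rose in both, by 4.79 without and 1.21 with cGAS siRNA (difference -3.59 ± 0.24, adjusted p = 6.54e-08). Groups differed in more than cGAS, since YAP1 after its siRNA stood at 23.1 CPM on average with cGAS siRNA and at 14.6 CPM without it, a difference between the effects of 0.86 ± 0.19 (adjusted p = 0.00516). The part of the remaining YAP1 message in these differences was not tested. The remaining WWTR1 was 17.9 and 18.8 CPM with cGAS siRNA and 22.8 and 16.7 CPM without it, and these levels were not tested against each other. For WWTR1 the difference between the effects was not called (0.44, adjusted p = 0.108).

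**Figure D3:**
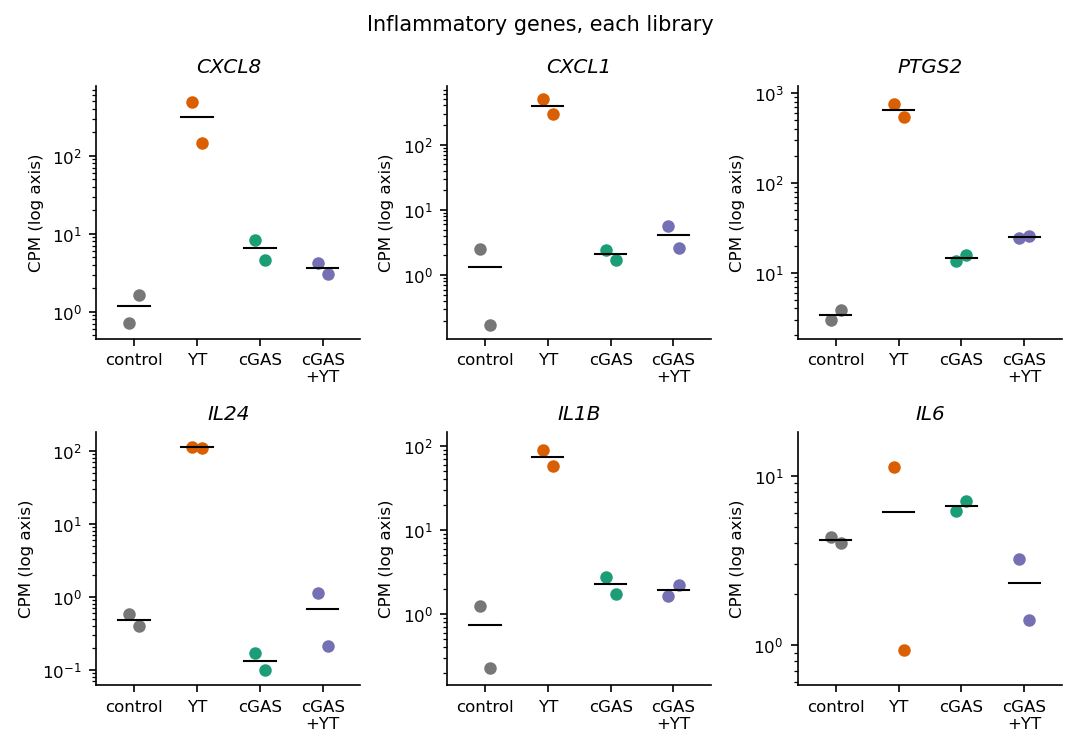
CPM (log axis) of 6 inflammatory genes in each of 8 libraries, by group; points are libraries and bars are group means. YT means YAP and TAZ siRNAs. CXCL8, CXCL1, PTGS2, IL24 and IL1B are highest in both libraries with YAP and TAZ siRNAs alone, and the 2 libraries of that group differ for IL6 (11.3 and 0.926 CPM).

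Many YAP/TAZ targets and cytoskeletal genes were lowered less when cGAS siRNA was present. The effect was higher with cGAS siRNA, that is less negative or reversed, for 17 of 28 YAP/TAZ targets (7.5% of all genes). It was higher for 14 of 23 contractile genes and 13 of 25 focal adhesion genes. It was lower for 2, 1 and 2 members of these lists (5.93% of all genes). The contractile and focal adhesion counts fell when any control library or any library with cGAS siRNA was left out. CYR61 fell by 3.52 on the log2 scale without cGAS siRNA and by 0.86 with it (difference 2.66 ± 0.19, adjusted p = 1.24e-07). The difference was 0.98 ± 0.21 for CTGF (adjusted p = 0.00498; 0.63 without replicate 4), 2.05 ± 0.30 for ANKRD1 (0.000202) and 1.43 ± 0.13 for AMOTL2 (1.60e-06). LMOD1 and WNT2 fell without cGAS siRNA and rose with it, with differences of 1.68 ± 0.16 (adjusted p = 3.41e-06) and 2.41 ± 0.28 (2.18e-05). The widest differences of this sign were in OXTR, the oxytocin receptor (3.89 ± 0.16, adjusted p = 3.44e-10), MEST (3.51 ± 0.26, 2.03e-07), SHISA3 (2.96 ± 0.34, 1.80e-05), CDC42EP3 (2.92 ± 0.13, 3.44e-10) and KCNJ2, a potassium channel (2.89 ± 0.34, 2.04e-05). OXTR was at 246 and 259 CPM with control siRNA, at 8.93 and 7.77 CPM with YAP and TAZ siRNAs, at 307 and 320 CPM with cGAS siRNA and at 179 and 163 CPM with both. CDC42EP3, an effector of CDC42 that acts on actin and septins, was at 290 and 320, 37.8 and 37.7, 299 and 301, and 286 and 291 CPM in the same order, so that of these 4 groups the 1 with YAP and TAZ siRNAs alone was low. LMNB1 fell in both settings, but cells with cGAS siRNA already had less of it (10.2 and 8.69 CPM against 29.6 and 31.4 CPM), and its effect was smaller by 1.79 ± 0.26 (adjusted p = 0.000183).

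Mitotic genes fell in both settings. Their summed level started lower with cGAS siRNA, at 939 and 965 CPM against 1784 and 1907 CPM with control siRNA. With YAP and TAZ siRNAs it was 352 and 327 CPM with cGAS siRNA and 421 and 442 CPM without it. With YAP and TAZ siRNAs alone 40 of 42 fell, with a median of -2.49. The effect was higher with cGAS siRNA for 15 (7.5% of all genes) and lower for 1 (5.93% of all genes). The part of the lower start in this difference was not tested. The number with a higher effect was 5 without replicate 7 and 8 without replicate 2 or 9. UBE2C fell by 3.08 alone and 2.97 with cGAS siRNA, with no called difference (0.11, adjusted p = 0.82). ACTR2 fell by 1.90 and 1.89 (difference 0.01, adjusted p = 0.979). These 2 comparisons share no library. Across all genes, 1199 were lower in both, which is 41.2% of those lower without and 68.1% of those lower with cGAS siRNA, and 1199 were higher in both (41.8% and 57.5%). The log2 changes had a Pearson r of 0.575 across 13894 genes, which are not independent replicates. There were 110 genes lower without and higher with cGAS siRNA and 54 genes the reverse. All of these 164 passed the test of the difference. They were picked for called effects of opposite sign in the same fit. That made the outcome nearly certain, so it adds no support.

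**Figure D4:**
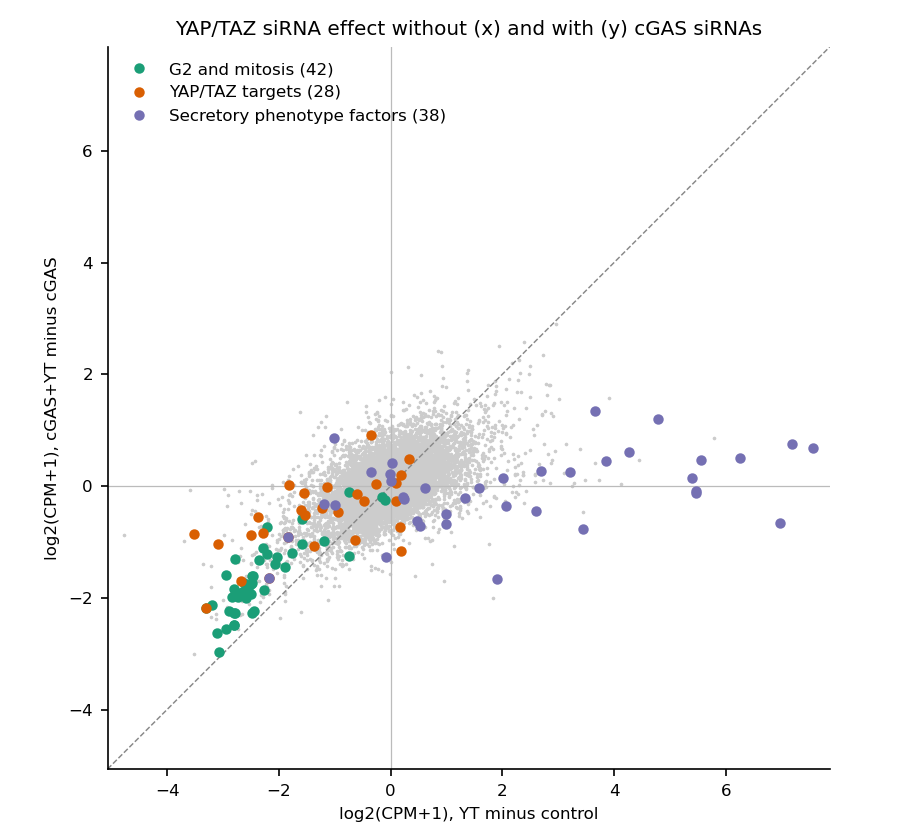
Log2(CPM + 1) difference with YAP and TAZ siRNAs for each of 13894 genes in cells without cGAS siRNA (x axis) and with it (y axis); the dashed line marks equal differences. The 42 mitotic genes lie low on both axes, and secretory phenotype factors such as CXCL8 and PTGS2 lie far to the right and near 0 on the y axis.

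Interferon-stimulated genes differed between the 2 libraries with all 3 siRNAs. All 42 antiviral genes were higher in replicate 9 than in replicate 10, with a median log2 gap of 0.96, whereas the median gap between replicates 7 and 8 was 0.08. Their summed level was 2682 and 2752 CPM with control siRNA and 3496 and 4152 CPM with YAP and TAZ siRNAs alone. It was 10930 and 10330 CPM with cGAS siRNA, and 13380 and 7518 CPM in replicates 9 and 10. With YAP and TAZ siRNAs alone 23 of the 42 rose (20.6% of all genes) and 0 fell. The effect was lower with cGAS siRNA for 9 (5.93% of all genes) and higher for 0, a comparison that uses replicates 9 and 10. MX1, a dynamin-like antiviral GTPase, was at 554 and 529 CPM in replicates 7 and 8 and at 780 and 246 CPM in replicates 9 and 10. IFIT1, which binds foreign RNA, was at 206 and 187 CPM and then at 282 and 114 CPM. In both genes 1 library with YAP and TAZ siRNAs stood above the cGAS siRNA libraries and the other below. ISG15, a ubiquitin-like modifier, was at 533 and 549 CPM and then at 533 and 240 CPM, and RSAD2, which encodes viperin, at 78.9 and 60.8 CPM and then at 144 and 19.1 CPM. Members of the IFIT, OAS and MX families resemble each other, and reads may be shared between them.

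With both libraries 2 of the 42 antiviral genes rose and 1 fell, with a median of -0.02. TRIM5 and TRIM22, restriction factors of retroviruses, rose by 0.44 ± 0.12 and 0.39 ± 0.11, and PARP14 fell by 0.50 ± 0.15 (adjusted p = 0.0186). Without replicate 9, 16 fell, among them MX1 (-1.13, adjusted p = 0.0408), IFIT1 (-0.78, 0.0322) and ISG15 (-1.17, 0.000484). Without replicate 10, 12 rose. The direction of the list therefore depended on which library was kept. TRIM5 was not called without replicate 7 (adjusted p = 0.0543), 8 (0.0879) or 9 (0.116), TRIM22 without replicate 7 (0.0958) or 9 (0.123), and PARP14 without replicate 7 (0.104), 8 (0.079) or 10 (0.333). Of 19 genes of MHC class I presentation, limma called 0 in either direction (4 at an unadjusted p under 0.05; edgeR 0, DESeq2 1), and 9 rose without replicate 10. TAP1, the peptide transporter, was at 175 and 159 CPM and then at 280 and 168 CPM, overlapping. Of 18 genes of DNA and RNA sensing 1 rose and 3 fell; without replicate 8, 1 fell, and without replicate 10, 3 rose and none fell. MAVS, the mitochondrial adaptor of RNA sensors, rose by 0.41 ± 0.07 (adjusted p = 0.000637). Of 16 interferon signalling genes 3 rose and 1 fell, and none fell without replicate 7, 8 or 10. The receptor subunit IFNAR2 rose by 0.56 ± 0.14.

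**Figure D5:**
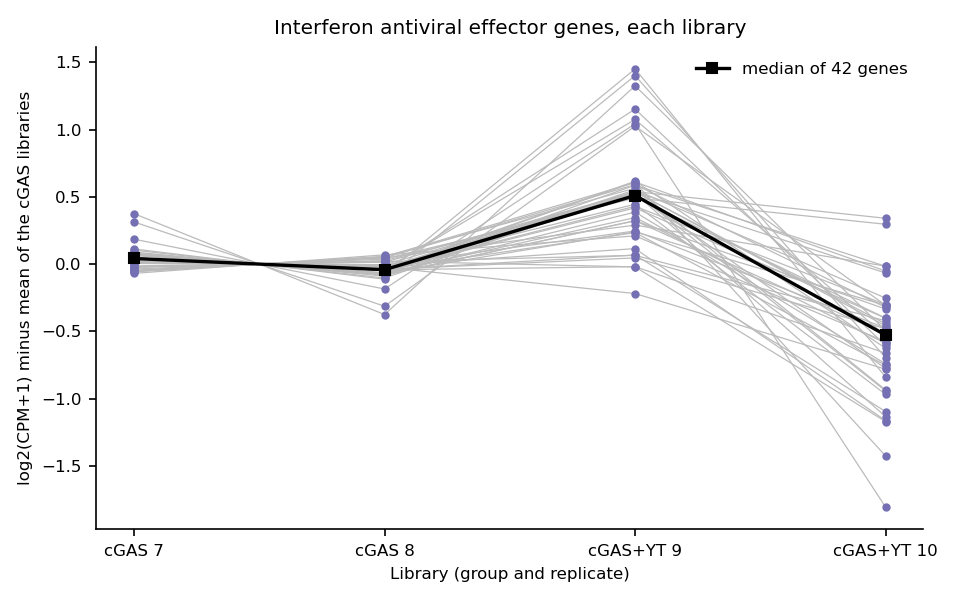
Log2(CPM + 1) of 42 interferon antiviral effector genes in the 2 libraries with cGAS siRNA (replicates 7 and 8) and the 2 with YAP, TAZ and cGAS siRNAs (replicates 9 and 10), less the mean of replicates 7 and 8. Grey lines join a gene and black squares are medians. All 42 genes are higher in replicate 9 than in replicate 10.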

How the data were processed

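WI-38 libraries were made with a kit that reads mRNA 3' ends, per the labels' protocols. Per the submitters' processing notes, hg38, STAR 2.5.3a, featureCounts and edgeR were used. The strand setting was not found in these sources, so overlapping and antisense genes cannot be told apart. The deposited signal values are CPM that, from the values, the authors scaled with TMM factors; whole reads were recovered for 100% of values (tolerance 0.01 reads), and depth was 17790774 to 20650727 reads. The worth of 3 reads was 0.142 to 0.170 CPM, which covers counting error only.

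Genes at 1 CPM or more in at least 2 libraries were kept (13894 of 13937). All 12 libraries entered 1 limma 3.58.1 fit (R 4.3.3) of log2(CPM + 1) with trended moderation, 6 residual degrees of freedom and Benjamini-Hochberg adjustment; the difference between the effects was a contrast of the same fit. edgeR 4.0.16 on the recovered reads called 2016 higher and 1722 lower genes, and DESeq2 1.42.0 was another alternative. The scripts were tested on simulated data.

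The members and the 43 gene lists were chosen with earlier results of these data known. Genes were named by rule: the siRNA targets; the 15 most raised and 15 most lowered genes (mean of at least 5 CPM, no overlap, same call with each library left out); up to 4 of each list by smallest p; the 5 highest and 5 lowest differences between effects; 11 further genes listed with them; and the 10 widest gaps between replicates 9 and 10. Promoters came from RefSeq (GRCh38.p14) and gene positions from GENCODE 29. Counts of list members without each library were added after seeing the data.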

Additional observations from a re-analysis of the deposited data

Results flagged for a closer look

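The 20 genes whose difference between effects is given above and passed the test were picked out because 2 groups' responses to the same siRNAs differed (adjusted p in the limma fit, groups of 2 libraries). Effects lower in cells with cGAS siRNA were those of CXCL8 (-7.63), CXCL1 (-6.88), PTGS2 (-6.43), IL24 (-5.75), IL1B (-5.60), STC1 (-4.20) and AREG (-3.59). Effects higher in cells with cGAS siRNA were those of OXTR (3.89), MEST (3.51), SHISA3 (2.96), CDC42EP3 (2.92), KCNJ2 (2.89), CYR61 (2.66), WNT2 (2.41), ANKRD1 (2.05), LMNB1 (1.79), LMOD1 (1.68), AMOTL2 (1.43), CTGF (0.98) and YAP1 (0.86). Values are log2 differences. All 20 kept their direction under each of the 17 other settings, and passed the test in those that left no single library out. They were picked for passing this test with all libraries, so passing again on shared libraries adds no support. Of the 340 values under these settings, 335 stayed within 1.5 times the value above. ANKRD1 was 0.97 with a pseudocount of 4, 3.15 with edgeR and 3.13 with DESeq2, SHISA3 was 1.95 with a pseudocount of 4, and CTGF was 0.63 without replicate 4 (YAP and TAZ siRNAs alone). With a constant prior the adjusted p was 0.0497 for CTGF and 0.0321 for YAP1. YAP1 is itself an siRNA target, and its remaining level differed between the settings, and the part of that in the other 19 was not tested. Groups of 2 libraries were too small to look for a single sample far from the others.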

How the results depend on the processing

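No paired analysis was possible because each replicate number occurs in 1 group only. With another pseudocount or filter, a constant prior, median-of-ratios scaling, a fit of the compared groups only, edgeR or DESeq2, each of the 4 counts of genes stayed within 1.5 times its value. With 1 library left out, genes higher with YAP and TAZ siRNAs numbered 1182 to 1572 and genes lower 1076 to 1520. Genes with a higher effect in cells with cGAS siRNA numbered 639 to 1915 and with a lower effect 472 to 1355, the upper values without replicate 3 (YAP and TAZ siRNAs alone) and the lower without replicate 7; without replicate 8 they were 658 and 525. Of 168 genes tracked, 143 kept direction and call in every setting. Signs turned for 5 genes, none called in the fit of all libraries: IFIT1 under edgeR (0.01), RSAD2 under edgeR (0.22) and DESeq2 (0.2), and with 1 library left out IL1B (-0.36 to 0.11), MX1 (-1.13 to 0.53), IFIT1 (-0.78 to 0.52), RSAD2 (-1.81 to 1.04) and CXCL10 (-0.49 to 1.33). The cause was not tested. IL24 rose under edgeR (2.35, adjusted p = 0.0247) and DESeq2 (2.38, adjusted p = 0.00573). In the fit of the compared groups only, IL6 (-1.26, adjusted p = 0.00259), TEAD1 (0.21, 0.0279) and KCNJ2 (0.41, 0.0356) were also called. Genes with few reads, such as IL24 at 0.166 and 0.0982 CPM with cGAS siRNA, are limited by depth.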
